A study of Caenorhabditis elegans with 2 samples.

Results

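The peaks described here are those of the worm protein SNPC-1.2 at the promoters of ordinary protein-coding genes, away from the chromosome IV regions that hold most piRNA genes. They were chosen by position only. A nuclear peak of the whole-series list was taken when it met 3 conditions. It lay outside 2 stretches of chromosome IV, 4.5 to 7.0 Mb and 13.5 to 17.2 Mb, its summit was at most 250 bp from the annotated 5' end of a protein-coding gene, and the summit was over 250 bp from every annotated non-coding RNA 5' end. Of 2829 nuclear peaks, 316 (11.2%) met this rule. Outside the clusters 1222 peaks were clear of non-coding RNA 5' ends, and these 316 were 25.9% of them.

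Whole Caenorhabditis elegans of strain RW12251 were used for ChIP-seq, in which DNA bound by a protein is pulled down with an antibody, here against GFP, and sequenced. In this strain the endogenous snpc-1.2 gene on chromosome III carries a TY1, EGFP and 3xFLAG tag inserted with CRISPR. Both samples, biological replicates 1 and 2, were L4 larvae at 48 hours, grown from L1 larvae starved after bleaching, with fragments of 200 to 800 bp. There was 1 group, every animal carried the tag, and no control library was analysed here, so comparisons are between genes, between peaks and between the replicates' own peak lists.

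By its name SNPC-1.2 belongs to SNAPc, the complex that activates small nuclear RNA genes. SNAPc is known for binding the promoters of those genes, where it helps to recruit the transcription machinery, and in C. elegans it also acts at piRNA genes. Protein-coding genes are transcribed by RNA polymerase II. In C. elegans many of their transcripts receive a spliced leader in place of their own first bases, so that an annotated 5' end can be the site of trans-splicing, downstream of where transcription starts. Neighbouring genes often share a promoter region as a divergent pair, or are transcribed together as an operon. Larvae were used whole, so binding in a few cells and weak binding in many cannot be told apart.

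The values are the peak caller's signal, whose scale is not stated, so they are compared within a list. Read depth is unknown. The replicates' own thresholded lists were shorter, with 1411 and 1737 nuclear peaks, of which 121 and 180 met the rule. All intervals below are exact 95% (Clopper-Pearson) intervals of a count of genes or peaks, and cover counting error only. For a count of 0 the limit given is 3 counts of the total.

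Sequences under the summits are shown first for 3 recurring words. The 10-letter word TGCTGGCGCA, in either orientation, lay within 75 bp of the summit at 13 of the 316 peaks. It is in capitals in the following stretches, which are given 5' to 3' on the strand of the gene from the RefSeq genome (WBcel235, the same assembly as ce11). They are the highest such peaks on chromosomes II to V, at chrIV:17249867-17249927 (plus strand), chrIV:4049659-4049719 (minus), chrIII:1859714-1859774 (plus), chrV:15766361-15766421 (minus), chrII:7301829-7301889 (plus) and chrIII:3460267-3460327 (plus).
eelo-2: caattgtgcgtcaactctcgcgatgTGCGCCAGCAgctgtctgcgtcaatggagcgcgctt
pcn-1: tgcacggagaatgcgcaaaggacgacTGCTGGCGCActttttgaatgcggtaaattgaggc
ddp-1: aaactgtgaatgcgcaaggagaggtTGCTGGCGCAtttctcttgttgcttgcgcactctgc
haf-3: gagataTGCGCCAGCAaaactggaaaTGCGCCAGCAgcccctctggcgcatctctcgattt
cul-4: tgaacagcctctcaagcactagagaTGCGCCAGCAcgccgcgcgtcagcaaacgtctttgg
C34C12.8: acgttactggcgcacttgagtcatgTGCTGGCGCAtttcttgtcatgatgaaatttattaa

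The word TTTAAAGGCG was under 11 of the peaks. The 5 highest on chromosomes II to V are shown with the word in capitals, at chrIV:13098849-13098909 (minus), chrIV:12404343-12404403 (plus), chrV:14457259-14457319 (plus), chrIV:13353336-13353396 (minus) and chrV:4175753-4175813 (plus).
dli-1: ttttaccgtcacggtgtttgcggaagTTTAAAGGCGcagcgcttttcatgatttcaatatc
gex-3: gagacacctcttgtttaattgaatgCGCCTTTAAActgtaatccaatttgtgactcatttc
coh-3: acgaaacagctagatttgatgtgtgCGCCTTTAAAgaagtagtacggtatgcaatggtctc
rec-8: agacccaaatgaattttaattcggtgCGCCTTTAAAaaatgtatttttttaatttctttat
pid-5: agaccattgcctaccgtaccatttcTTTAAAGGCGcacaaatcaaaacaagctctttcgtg

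The word GGGGTACGGT was under 9 of the peaks. Of those on chromosomes II to V and X, the 4 highest are shown with the word in capitals, at chrIV:1094336-1094396 (plus), chrIV:4445847-4445907 (minus), chrX:15841263-15841323 (plus) and chrII:3077104-3077164 (minus).
Y55F3AR.2: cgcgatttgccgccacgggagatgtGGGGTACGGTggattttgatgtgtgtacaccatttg
wapl-1: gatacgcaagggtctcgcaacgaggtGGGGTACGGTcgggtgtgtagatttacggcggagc
serp-1.1: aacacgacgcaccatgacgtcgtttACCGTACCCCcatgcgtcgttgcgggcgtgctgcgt
Y25C1A.8: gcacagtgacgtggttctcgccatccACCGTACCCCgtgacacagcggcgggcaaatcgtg

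Summits lay mostly upstream of the annotated 5' end. Of the 316 summits, 226 (71.5%) were upstream, 88 downstream and 2 at the 5' end itself, with a median position of -82 bp and quartiles of -163 and 28 bp. The rule bounds these positions, so the peaks around it were set beside them, taking all 1222 peaks outside the clusters that were clear of non-coding RNA 5' ends. Summits per kb of distance numbered 488 from 500 to 250 bp upstream of the nearest protein-coding 5' end, 904 in the last 250 bp upstream and 360 in the first 250 bp downstream. From 1000 to 2000 bp away they numbered 71 upstream and 126 downstream. By this measure the density was highest in the stretch just upstream of genes, and it continued past the edge of the rule on the upstream side. It was not set against the number of genomic bases at each distance from a nearest 5' end. How much of the fall further away comes from that number was not tested. Signal also differed by side, with a median of 111 in the last 250 bp upstream and 90.4 in the first 250 bp downstream. Most of the 316 summits, 208, lay outside any gene, 81 were in an exon and 27 in an intron.

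**Figure D1:**
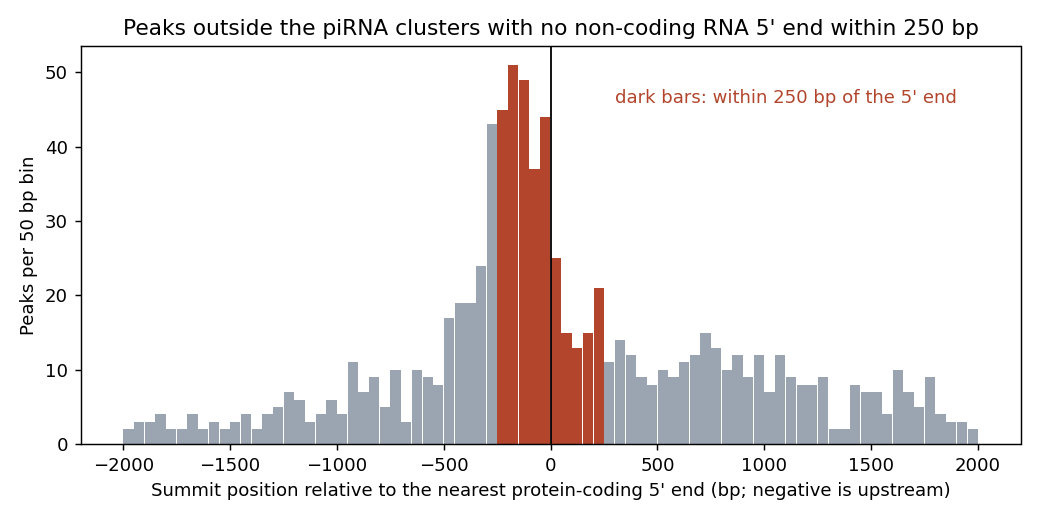
The x axis is the summit's position relative to the nearest protein-coding 5' end in bp (negative is upstream) and the y axis is the number of peaks per 50 bp bin, for the 1222 peaks outside the piRNA clusters that were clear of non-coding RNA 5' ends. Dark bars are the peaks within 250 bp, which crowd on the upstream side of the 5' end (226 upstream against 88 downstream), and grey bars the rest.

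At the edge of the rule, the member just inside was at uba-1, the gene for the ubiquitin-activating enzyme, 250 bp downstream of its 5' end with a signal of 90.4. Just outside, 251 bp upstream, were peaks at czw-1 (231), fars-3 (130) and hat-1 (87.4).

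The promoter peaks had a median signal close to that of the list, but they were less frequent among its highest peaks. Of the 500 highest peaks 28 met the rule, while 11.2% of all nuclear peaks did. Their signal ran from 2.17 to 1166, with a median of 103 and quartiles of 86.5 and 136. The median of all other nuclear peaks was 108, a ratio of 0.958, and in the replicates' own lists this ratio was 0.914 and 0.915. The upper quartile of those other peaks was 167. The 906 other peaks outside the clusters that were clear of non-coding RNA 5' ends had a median of 97.3, those near such an end had 161, and promoter peaks inside the clusters one of 167. Of the 316 peaks, 29 exceeded a signal of 200. At the low end 15 were under 20, and all 15 had another peak of the list within 500 bp, as 35 of the 316 did. A replicate value given for such a peak, which is the highest ranked replicate call within reach, can belong to that neighbour.

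Both replicates had a ranked call at 309 of the 316 peaks. The median signal at the peaks was 51.8 in replicate 1 and 58.1 in replicate 2. The ratio of replicate 1 to replicate 2 had a median of 0.869 and ran from 0.249 to 2.55, and 32 peaks differed by more than 2 times. Across peaks, Spearman's rho between the replicates was 0.44 and Pearson's r on the log10 scale 0.60; peaks share their libraries and are not independent, so these describe the lists. Only 86 of the 316 were in both replicates' thresholded lists, 31 in that of replicate 1 alone, 79 in that of replicate 2 alone and 120 in neither. Those in both had a median signal of 168 and those in neither one of 86.7. A thresholded list favours higher peaks, so a difference in this direction is largely built in.

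**Figure D2:**
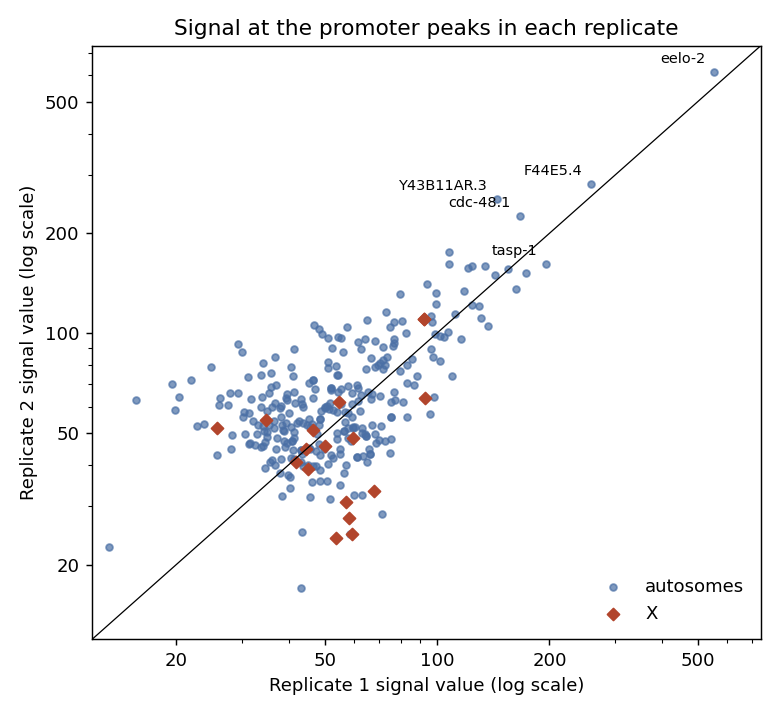
Each point is a promoter peak with a ranked call in both replicates, with its signal value in replicate 1 on the x axis and in replicate 2 on the y axis (both log scales); the line marks equal values, circles are autosomal peaks and diamonds peaks on X. The points scatter around the line (median ratio 0.869), eelo-2 and F44E5.4 lie near it at the top, and Y43B11AR.3 lies above it with 145 in replicate 1 and 255 in replicate 2.

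The highest promoter peak was at eelo-2, whose RefSeq product is a peptidase with an M3A/M3B catalytic domain. Its signal was 1166, with 554 in replicate 1 and 613 in replicate 2, and its summit lay 227 bp upstream of the gene. This peak stood far above the rest in both replicates, and it was 49.9 kb beyond the edge of the second piRNA cluster. The next was between F44E5.4 and F44E5.5, a divergent pair of genes for heat shock protein 70, with 539 in the whole-series list, 259 in replicate 1 and 282 in replicate 2. The 2 genes are near copies, and 66.6% of the 50-base words around this peak occur at 1 place in the genome, so reads could be shared between copies. The stretch around this summit, chrII:11759399-11759499 (minus strand), is shown because it holds 2 neighbouring copies of TTCNNGAA, the core of the heat shock element that heat shock factor binds, in capitals.
F44E5.4: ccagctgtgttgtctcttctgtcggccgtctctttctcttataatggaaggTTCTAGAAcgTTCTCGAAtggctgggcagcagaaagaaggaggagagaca
TTCNNGAA, whose reverse complement is the same word, was under 24 of the 316 peaks (7.59%) and in 8.70% of all protein-coding promoter windows of the same length, so the word itself was not more frequent under the peaks.

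Y43B11AR.3, whose product has a TruB pseudouridine synthase domain, had a peak of 402 (145 in replicate 1 and 255 in replicate 2) in an exon 181 bp inside the gene. This was the only one of the 12 highest with its summit downstream of the 5' end. The peak at cdc-48.1, which encodes a p97 ATPase that extracts ubiquitinated proteins, had 390, with 167 and 225 in the replicates. At tasp-1, a taspase homolog, the signal was 361, with 196 and 162. Replicate 2 was thus the higher at cdc-48.1 and replicate 1 at tasp-1. A peak of 336 (173 and 151) lay between drr-2, which encodes an RNA-binding protein, and set-16, which encodes a histone H3 lysine 4 methyltransferase.

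Y22D7AL.10, which encodes the mitochondrial 10 kDa heat shock protein, had 314, with 155 and 156. It is divergent with hsp-60, the gene for its mitochondrial chaperonin partner, at a gap of 813 bp, and the summit was within 250 bp of Y22D7AL.10 only. At cox-5B, for a subunit of cytochrome c oxidase, the signal was 305, with 163 and 135. F44E7.4, for an insulin-degrading enzyme homolog, had 291 (134 and 159); 54.6% of the words around its peak are unique. The remaining 3 of the 12 highest were close in height and higher in replicate 2. They were D2096.7, with an ELYS domain (290; 107 and 176), cpg-1, for a chondroitin proteoglycan of the eggshell (288; 124 and 160), and dpm-3, for a subunit of dolichol-phosphate mannosyltransferase (287; 143 and 149).

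A gene outside the clusters was counted as occupied when its 5' end had one of the 316 summits within 250 bp. Of 19032 protein-coding genes, 348 were occupied (1.83%, interval 1.64 to 2.03). The replicates' own lists gave 146 (0.767%) and 200 genes (1.05%), a mean of 0.909% ± 0.201 (SD, n = 2). Of replicate 1's genes 126 were also occupied in the whole-series list, and of replicate 2's 180. Of the 316 peaks 277 had 1 gene within reach, 36 had 2 and 3 had more.

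Genes for translation, splicing and several other housekeeping functions were occupied more often than the average gene. A gene was also counted where its peak lay nearer to another gene. Among ribosomal protein genes this held for rps-20 (nearest ekl-4), rps-12 (nearest ska-3) and rpl-22 (nearest ify-1). Of 78 cytosolic ribosomal protein genes outside the clusters 12 were occupied (15.4%, interval 8.21 to 25.3), against 1.83% of all genes, and the replicates' lists gave 8.97% ± 1.81 (SD, n = 2). With a window of 100 bp the count was 4 and with one of 500 bp it was 31, while all genes were at 0.641% and 2.93%, and the 500 highest peaks of the whole list included 1. The 3 highest were rpl-7A, rpl-24.2 and rpl-12, although rpl-24.2 is annotated as a ribosome biogenesis factor and rpl-7A shares its peak with set-21. At rpl-7A, for a protein of the large subunit, the signal was 278, with 121 in replicate 1 and 157 in replicate 2. At rpl-24.2 it was 188 (82.6 and 100.3) and at rpl-12 it was 164 (76.7 and 108), so all 3 were higher in replicate 2.

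Mitochondrial ribosomal proteins were occupied at 7 of 68 genes (10.3%, interval 4.24 to 20.1). Their peaks were low, with a median signal of 86.7, and the replicates' lists held 0 and 1 of these genes, so this share rests on the combined list. The highest were mrpl-55 (91.9), mrpl-50 (91.2) and mrps-35 (90.0). The genes mrpl-1 and mrps-24 were counted through a shared peak that was nearest to emc-6. Translation factors were occupied at 4 of 43 genes (9.30%). They included eef-1G, a subunit of the elongation factor that delivers tRNAs, at 149, and eef-2, the translocation factor, at 137, with iff-1, a germline eIF5A, at 82.3. The peak at iff-1 was nearer to cdk-1, and those at eef-1G, eef-2 and the synthetase gene ears-2 were each shared with another gene. Aminoacyl-tRNA synthetases, which charge tRNAs, were occupied at 3 of 30 genes (interval 2.11 to 26.5%), with ears-2 at 168, vars-1 at 91.3 and fars-3 at 2.40. The last is one of the low peaks beside another, here the one at 130 just outside the rule.

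Histone genes were occupied at 6 of 79 (7.59%), through 4 peaks. The divergent his-67 and his-68 shared a peak of 265, with 108 in replicate 1 and 162 in replicate 2, and his-61 and his-62 one of 101. Replicate 1's own list held 8 histone genes and replicate 2's 5. Splicing genes were occupied at 5 of 48 (10.4%), through 4 peaks. Of these genes rsp-2 and rsp-1, for splicing factors rich in arginine and serine, are divergent and shared a peak of 111. The gene prp-8, for the core of the spliceosome, had 85.3. Each replicate's own list held 2 splicing genes (4.17%). With a window of 100 bp the splicing count was 0 and with one of 500 bp it was 7, and the 500 highest peaks included 0.

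Genes of the transcription machinery were occupied at 4 of 75 (5.33%, interval 1.47 to 13.1, which holds the all-gene share), all named as Mediator subunits, with mdt-26 at 167, mdt-9, which RefSeq annotates otherwise, at 138 and mdt-22 at 89.6. Of the SNAPc genes themselves 1 of 6 was occupied (interval 0.421 to 64.1%), snpc-3.4, for an annotated subunit 3 of the complex, at 102 with 45.5 in replicate 1 and 52.2 in replicate 2. DNA replication and cell cycle genes were occupied at 6 of 87 (6.90%). The list's highest was cdc-48.1, followed by pcn-1, for the sliding clamp of DNA polymerase, at 232 (93.8 and 141) and mcm-3AP at 107. Neither cdc-48.1 nor mcm-3AP is a core replication gene. Oxidative phosphorylation genes were occupied at 4 of 48 (8.33%), with cox-5B at 305, atp-2, for the beta subunit of ATP synthase, at 103 and mev-1, for a subunit of succinate dehydrogenase, at 97.7. The latter shares its peak with jmjd-4. Each replicate's own list held 1 oxidative phosphorylation gene (2.08%).

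The lists that follow, down to vesicle transport, have intervals that hold the 1.83% of all genes. Nuclear pore genes were occupied at 3 of 39 (7.69%), namely npp-3 (154), npp-8 (116) and npp-18 (66.6). Chromatin regulators were occupied at 4 of 75 (5.33%), with set-16 and set-21 at the shared peaks of 336 and 278 given above and swsn-3, for a chromatin remodelling subunit, at 121. Small RNA pathway genes were occupied at 4 of 71 (5.63%), with ekl-4, annotated as a DNA methyltransferase-associated protein, at 154, pid-5 at 116 and rde-8 at 110. RNA helicase and RNA-binding genes were occupied at 3 of 72 (4.17%), with xrn-2, for a nuclear exonuclease, at 140, mex-1 at 121 and cgh-1, a germline helicase, at 118. Genes with chaperone symbols were occupied at 3 of 67 (4.48%), all J-domain proteins, with dnj-28 at 240, dnj-9 at 156 and dnj-29 at 65.3. That list missed chaperone genes whose symbols do not show their function. Among them were the occupied F44E5.4 and F44E5.5, at 539, and Y22D7AL.10, at 314. The ubiquitin pathway had 3 of 68 (4.41%), cul-4, for a scaffold of ubiquitin ligases, at 129, usp-39 at 115 and uba-1 at 90.4. The proteasome had 1 of 32 (3.12%), pbs-1 at 97.9 and in neither replicate's list, and vesicle transport 2 of 112 (1.79%), arf-5 at 83.3 and rab-18 at 82.9, which is close to the background of 1.83%.

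Germline and oogenesis genes were occupied at 8 of 69 (11.6%, interval 5.14 to 21.6; replicates' lists 5.80% ± 4.10, SD, n = 2). L4 is the stage at which the germ line grows and begins to make gametes. The group held 3 eggshell proteoglycans, cpg-1, cpg-2 and cpg-4, the permeability barrier gene perm-1, the fertilisation gene egg-1 and the germline RNA-binding gene mex-1. It also held rec-8, for the meiotic cohesin, and syp-2, for the synaptonemal complex that joins paired chromosomes. Their signal ran from 88.5 at cpg-4 to 288 at cpg-1, with 143 at rec-8 (64.6 in replicate 1 and 78.1 in replicate 2). At perm-1 it was 122, with 29.2 in replicate 1 and 92.4 in replicate 2, the widest gap between the replicates in this group. In replicate 1's own list 2 genes of the group were occupied and in replicate 2's 6. The count depended on the window. It was 0 with a window of 100 bp and 11 with one of 500 bp, while all genes were at 0.641% and 2.93%. The 500 highest peaks of the whole list included 1 gene of the group.

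Genes for chemoreceptors, nuclear hormone receptors and lectins were rarely occupied. Of 1226 genes with serpentine chemoreceptor symbols, which encode the worm's large families of receptors for chemicals, 2 were occupied (0.163%, interval 0.0198 to 0.588), srh-16 at 123 and srbc-58 at 94.1. The occupied Y70C5A.2, at 72.6, has a class H serpentine receptor as its product but no such symbol, and was not counted. None of 264 nuclear hormone receptor genes was occupied, which allows a share of up to 1.14%, and none of 231 C-type lectin genes, up to 1.30%. None of 155 neuronal genes was occupied either, up to 1.94%, and none of 22 major sperm protein genes, up to 13.6%. These last limits lie above the 1.83% of all genes, so the counts do not set those lists apart. F-box genes were occupied at 2 of 315 (0.635%), fbxb-85 at 178 and fbxb-72 at 119. Homeobox genes had 1 of 94 (1.06%), ceh-92 at 107, and cuticle collagens 2 of 173 (1.16%), col-10 at 94.2 and col-119 at 12.3. In body muscle 1 of 23 was occupied (4.35%), act-3 at 80.8, and in intestine 1 of 79 (1.27%), vit-2, for a yolk protein, at 96.7. The intervals of these last 5 lists, F-box genes included, all hold the 1.83% of all genes.

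Across the 29 lists, 19 had a share above that of all genes and 25 had at least 1 occupied gene. The lists hold 3728 of the 19032 genes and covered 91 of the 348 occupied genes. The 15304 genes in none of them were occupied at 1.68%, close to the 1.83% of all genes.

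**Figure D3:**
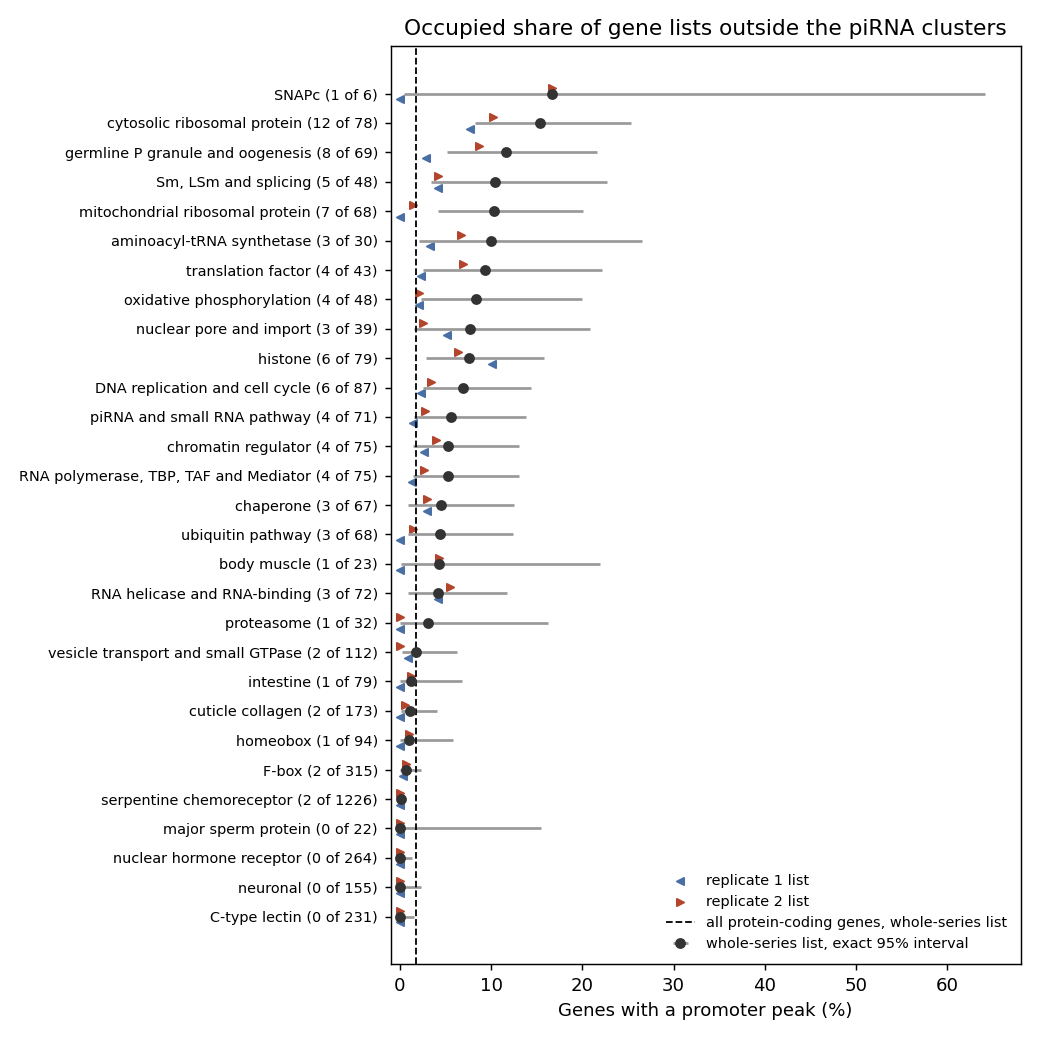
The x axis is the percent of a list's genes outside the piRNA clusters with a promoter peak and each line is a gene list with its count; circles with bars are the whole-series list with the exact 95% interval, triangles the replicates' own lists, and the dashed line all protein-coding genes (1.83%). Ribosomal, germline, splicing and synthetase genes lie to the right, and receptor, lectin and neuronal genes at or near 0.

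Genes in a divergent pair, with 5' ends at most 1000 bp apart, were occupied more often than other genes. Of 3336 such genes outside the clusters 128 were occupied (3.84%, interval 3.21 to 4.55), against 220 of 15696 other genes (1.40%, 1.22 to 1.60). The replicates' lists gave 2.32% ± 0.0212 and 0.608% ± 0.239 (SD, n = 2), so the gap was wider than the spread between them. A summit between close 5' ends counts for both genes. The intervals treat such genes as separate counts, so for divergent genes here and below they are too narrow. Counted by peak, 96 of the 316 (30.4%) were at a divergent pair, while 17.5% of genes are in one, and in 81 of the 96 the summit lay between the 5' ends. Of 1668 pairs 92 (5.52%) had an occupied gene, and both genes were occupied in 36. The share of occupied genes was 3.91% where the gap was at most 250 bp, 6.08% where it was over 250 and up to 500 bp and 2.34% where it was wider, up to 1000 bp. Peaks at pairs had a median signal of 114 and those elsewhere one of 98.8.

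The 3 highest divergent peaks were those of F44E5.4 with F44E5.5 at a gap of 351 bp, of K01G5.10 with tasp-1 at 785 bp and of drr-2 with set-16 at 346 bp. Other pairs joined genes of the lists above to others, such as rps-23 with dpm-3, rpl-7A with set-21 and cct-8 with Y55F3AR.2; at the first and last of these the summit was within 250 bp of dpm-3 and Y55F3AR.2 only.

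The annotation used here marks no operons, so close spacing on a strand, with a gap of at most 500 bp, stood in for them. Genes with no such neighbour were occupied at 1.34% (172 of 12864) and the first genes of such runs at 2.26% (59 of 2611). Middle genes were at 4.76% (45 of 946, interval 3.49 to 6.31) and last genes at 2.76% (72 of 2611), so in this list the later genes of a run were occupied no less often than the first. The replicates' lists were far apart for middle genes, with 1.37% and 2.96%, and in replicate 1's list last genes were below first genes, at 0.843% and 1.11%. Of the 348 occupied genes 117 (33.6%) had a close upstream neighbour, against 18.7% of all genes, and 104 (29.9%) a close downstream one.

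The 3 highest first genes were tasp-1, followed after 109 bp by dpy-28 for a condensin subunit, drr-2, followed after 92 bp by T12D8.10 for a BolA family protein, and his-68, followed after 286 bp by alg-5 for an argonaute. Among later genes were eelo-2, Y43B11AR.3 and D2096.7, the last 74 bp after nap-1 for a nucleosome assembly protein.

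Divergence and spacing were then crossed. Genes with neither were occupied at 0.784% (81 of 10336, interval 0.623 to 0.973), and genes with a close same-strand neighbour and no divergent partner at 2.59% (139 of 5360, 2.18 to 3.05). Divergent genes with no such neighbour were at 3.60% (91 of 2528, 2.91 to 4.40) and genes with both at 4.58% (37 of 808, 3.24 to 6.26). Among divergent genes the intervals with and without a close neighbour overlap. Replicate 1's list gave 2.35% with such a neighbour and 2.29% without, and replicate 2's gave 2.85% and 2.18%. A difference by spacing was thus clear only among genes with no divergent partner, and among divergent genes these counts do not settle it. In each replicate's own list the genes with neither were also the lowest, at 0.232% and 0.348%.

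The X chromosome held few of these promoter peaks, 17, although its 336 nuclear peaks of all kinds were more than on any autosome but IV. Of 2731 genes on X 16 were occupied (0.586%, interval 0.335 to 0.950), against 332 of 16301 autosomal genes (2.04%, 1.83 to 2.27), a ratio of 0.288. Replicate 1's list had 8 genes on X (0.293%) and a ratio of 0.346, and replicate 2's had 3 (0.110%) and a ratio of 0.0909. Among autosomes the share ran from 1.28% on V and 1.51% on II through 2.12% on I to 2.84% on III and 3.42% on IV. The intervals of V (0.988 to 1.63) and X did not overlap. Chromosome IV outside the clusters was at 2.82% left of the first cluster, 3.68% between the clusters and 4.05% right of the second, and without chromosome IV the autosomes were at 1.81% and the ratio was 0.325.

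X also has fewer divergent pairs and close neighbours, so the arrangement was held fixed. Among genes with neither, X was at 0.527% (11 of 2086, interval 0.264 to 0.942) and the autosomes at 0.848% (70 of 8250, 0.662 to 1.07), and these intervals overlap. Among divergent genes X was at 1 of 160 and the autosomes at 127 of 3176 (interval 3.34 to 4.74%). The interval for X there, 0.0158 to 3.43, overlaps that of the autosomes slightly. Among genes with a close same-strand neighbour X was at 4 of 500 (interval 0.218 to 2.04%) and the autosomes at 172 of 5668 (3.03%, 2.60 to 3.51).

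The 17 peaks on X were also set beside the 299 on autosomes in other respects. As 17 peaks are few, and no interval or test was made for these values, they describe the peaks only. Their median signal was 84.3, against 104, and replicate 1 was higher at 10 of the 17, while it was higher at 104 of 292 autosomal peaks with both calls. Their median summit position was 0 bp, against -84 bp, and 8 of 17 (47.1%) had the summit in an exon, against 73 of 299 (24.4%). The median G+C content was 52.3% under X peaks and 43.0% under autosomal peaks, while promoter windows in general had 34.4% on X and 32.5% on autosomes.

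The 3 highest on X were F17A2.16, annotated as a histone deacetylase, at 211 (92.2 in replicate 1 and 110.1 in replicate 2), serp-1.1, for an endoplasmic reticulum stress protein, at 145 (92.9 and 63.6) and ZK470.4, for an ABC transporter, at 115 (54.4 and 61.7). Only 45.6% of the words around the F17A2.16 peak are unique in the genome, so its reads could come from a copy elsewhere.

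**Figure D4:**
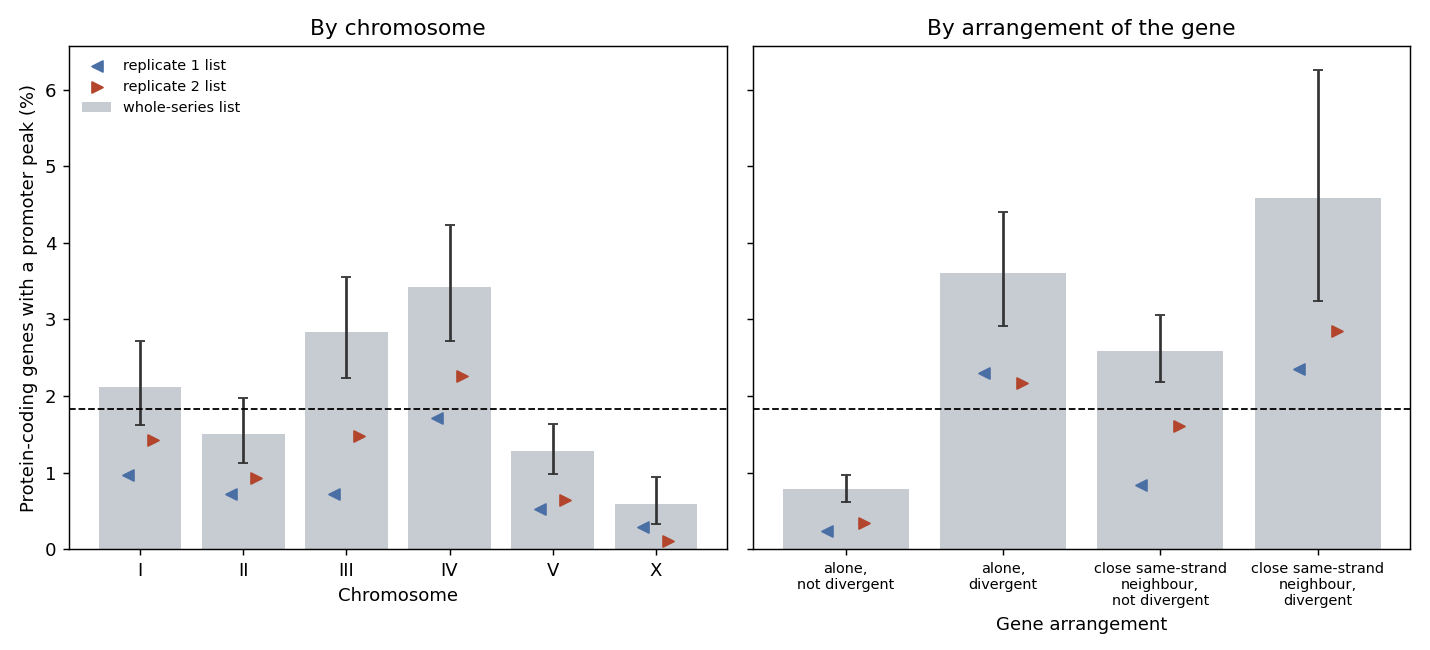
The y axis is the percent of protein-coding genes outside the piRNA clusters with a promoter peak, by chromosome (left) and by arrangement of the gene (right); bars are the whole-series list with exact 95% intervals, triangles the replicates' own lists and the dashed line all genes (1.83%). X is the lowest chromosome at 0.586%, and genes with neither a divergent partner nor a close same-strand neighbour are the lowest arrangement at 0.784%.

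The sequence under the peaks was rich in G and C. In windows of 151 bases around the summit the median G+C content was 43.0% (quartiles 39.1 and 49.0), while windows of the same length centred 82 bp upstream of all 19032 protein-coding genes had a median of 33.1% (28.5 and 37.7). Of those promoter windows 10.9% reached the median of the peaks. Other peaks outside the clusters with no non-coding RNA nearby had 45.0%, so the promoter peaks had this in common with them. Across the 316 peaks G+C content and signal had a Spearman's rho of 0.17.

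**Figure D5:**
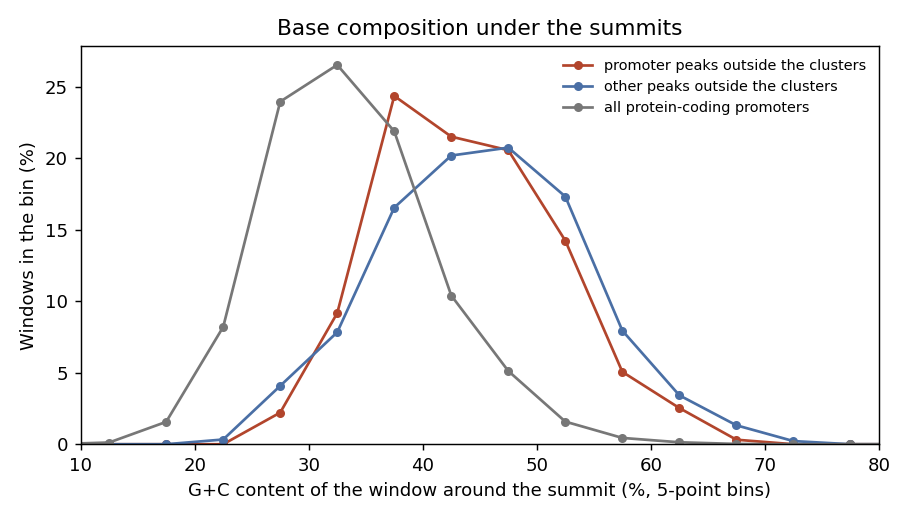
The x axis is the G+C content of the window of 151 bases around the summit in 5-point bins and the y axis is the percent of windows in the bin, for the promoter peaks, the other peaks outside the clusters that were clear of non-coding RNA 5' ends, and all protein-coding promoters. Both kinds of peak lie to the right of the promoters, with medians of 43.0%, 45.0% and 33.1%.

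Words known from other kinds of gene were under few of these peaks. CTGTTTCA, part of the motif upstream of piRNA genes, was under 0 of 316 summits on either strand, which allows a share of up to 0.949%, and in 0.830% of all promoter windows. The internal B box of tRNA genes, searched as GGTTCGA, any 2 letters and CC, was under 3 (0.949%), at rla-1, C44C11.6 and Y70C5A.2, and in 14 of 19032 promoter windows (0.0736%). It was under 2.32% of the other peaks outside the clusters and under 35.1% of the 576 near a non-coding RNA 5' end. The matches at the latter 2 genes are in capitals here, at chrII:12344960-12345020 (plus) and chrV:16622886-16622946 (minus), since they mark the few promoter peaks that hold a tRNA gene's word with no annotated non-coding RNA within reach.
C44C11.6: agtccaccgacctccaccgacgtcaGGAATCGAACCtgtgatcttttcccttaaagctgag
Y70C5A.2: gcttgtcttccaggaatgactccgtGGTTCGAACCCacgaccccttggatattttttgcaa

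TATAAA was under 29 peaks (9.18%) and in 25.3% of promoter windows. Within the peaks' middle range of G+C content, 39.1 to 49.0%, it was under 9.82% of 163 peaks and in 16.9% of 3690 promoter windows. TTTCAG, the usual 3' splice site, was under 20.3% and in 20.8%, and GAGAGA under 16.8% and in 13.0%. In that range TTTCAG was under 20.9% of the peaks and in 15.1% of the windows, and GAGAGA under 12.9% and in 21.4%. TATAAA was thus the lower under the peaks in both comparisons, and the order for TTTCAG and for GAGAGA turned with the choice of promoters.

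The words shown at the start were far more frequent under the peaks than in promoter windows centred 82 bp upstream of protein-coding genes. Those windows do not follow the summits, so they can miss copies of a word elsewhere in a promoter. The words came from a search of the peaks for 10-letter words found under at least 8 of them. The search ranked them by how much more frequent they were than in those windows. The words and the genes named with them were thus picked after the values were seen, and their counts are descriptions. TGCTGGCGCA was under 13 of 316 (4.11%, interval 2.21 to 6.93) and in 21 of 19032 promoter windows (0.11%). Within the range of G+C content given above it was under 6.13% of the peaks and in 0.217% of promoter windows. It was under 0.662% of the 906 other peaks outside the clusters and under none of the 576 near a non-coding RNA 5' end. Its centre was at most 36.5 bp from the summit, with a median of 12.5 bp, and all 13 windows were fully unique in the genome.

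The genes at TGCTGGCGCA peaks were of many kinds. The highest were eelo-2 at 1166, pcn-1 at 232, ddp-1, for a mitochondrial import protein, at 157, and haf-3, for an ABC transporter, at 147. At haf-3 the word occurs 2 times. C34C12.8, for a mitochondrial GrpE homolog, had 128 (81.0 in replicate 1 and 61.7 in replicate 2), and cul-4 had 129 (56.6 and 57.7).

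Most copies of the word carried no peak. The genome holds 156 copies, 152 of them outside the clusters, and 21 of these (13.8%) were within 75 bp of a summit of the whole-series list. Of the 21 promoter windows with the word 7 were at occupied genes. Of the other 14, 9 had a ranked call of any rank, with a median signal of 48.2, while unoccupied promoters in general had a ranked call at 32.5%, with a median of 29.9.

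TTTAAAGGCG was under 3.48% of the peaks and in 0.321% of promoter windows, and within the range of G+C content under 4.29% and in 0.271%. Its 11 peaks had signals from 66.6, at npp-18, to 192, at dli-1, for a dynein light intermediate chain. They included coh-3, for a meiotic cohesin subunit, at 167 (64.7 in replicate 1 and 110 in replicate 2), and a peak of 116 (72.7 and 47.1) at pid-5 and coh-4, the latter the gene for another meiotic cohesin subunit. They also included 2 genes of the germline list, rec-8 and syp-2. Others were at genes of unlike roles, such as gex-3 at 177 and npp-18. The word was also under 1.10% of the other peaks outside the clusters, and of its 1994 copies outside the clusters 1.15% lay near a summit. GGGGTACGGT was under 2.85% of the peaks and in 0.0525% of promoter windows. Its peaks included wapl-1, for a factor that releases cohesin from chromosomes, at 155 (86.5 and 69.8), snpc-3.4 at 102 and gmn-1, for geminin, at 99.8. Of the 316 peaks 60 held at least 1 of the 6 words searched in this way.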

How the data were processed

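The 2 samples are biological replicates of 1 group, so there was no test between groups. Per the file headers and labels, the authors' peak lists are on assembly ce11 and derive from filtered alignments with a control. An aligner or peak caller was not given in the sources used here. Signal values are as deposited, on a scale that is not stated. Per the file headers, the authors' ranked lists also give the −log10 of the irreproducible discovery rate (IDR), capped at 5. Summits are the deposited start plus offset plus 1. The 13 mitochondrial peaks were left out.

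Ensembl release 115 (WBcel235) gave the gene 5' ends and the RefSeq genome the sequence. A replicate's value at a peak is its highest ranked call with a summit within 250 bp. Uniqueness is the percent of 50-base words around the summit found at 1 place in the genome. Lists were symbol patterns. Python 3.11.15, numpy 2.4.6, pandas 2.3.3, scipy 1.17.1 and matplotlib 3.10.9 were used. The rule was tested on simulated summits.

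Members and lists were chosen with earlier results of these data known. Named genes were the 12 highest peaks, the 3 highest on X, up to 3 per list with an occupied gene, the 3 highest divergent pairs and first genes, and those at the rule's edge; genes outside this, such as the further germline genes, divergent pairs, later genes and those at words, were named after their values were seen. Alternatives were the conservative list, windows of 100 and 500 bp, transcript 5' ends, a wider non-coding RNA exclusion, the 500 highest peaks, other gaps and word windows, and each replicate's own list.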

Additional observations from a re-analysis of the deposited data

How the results depend on the processing

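No paired analysis was possible because both samples belong to 1 group. Values are given in a fixed order: the number of peaks, the percent of genes occupied, the signal ratio of these peaks to others, and the median summit position in bp; as reported these are 316, 1.83%, 0.958 and -82. A window of 100 bp gave 121, 0.641%, 0.974 and -25, and one of 500 bp 492, 2.93%, 0.958 (not changed beyond its spread) and -121. The 500 highest peaks gave 28, 0.168%, 0.879 and -154. With transcript 5' ends the last 3 were 2.10%, 0.931 and -68.5. The conservative list gave a ratio of 0.970 and -69, and excluding non-coding RNA 5' ends within 500 bp gave 0.953 and -84. Of the settings chosen after seeing the data, IDR at most 0.001 gave 116, 0.720%, 0.848 and -108.5, and the ranked list at IDR at most 0.05 gave 616, 3.45%, 0.989 and -37.5. Members with signal of 20 or more gave 0.982 and -85, and windows at least 50% unique gave 0.961. With either replicate's own list alone, the counts ran from 121 to 180, the percents from 0.767 to 1.05, the ratios from 0.914 to 0.915 and the positions from -91 to -88.5. The X to autosome ratio, 0.288 as reported, was 0.0884 at IDR at most 0.001 and ran from 0.0909 to 0.346 over the replicates' lists. The occupied genes' share in divergent pairs over that of all genes, 2.10, was 2.85 for the 500 highest peaks, 2.84 with a gap of 500 bp and 2.71 at IDR at most 0.001, and ran from 2.22 to 3.01 over the replicates. The same ratio for a close upstream neighbour, 1.80, was 2.50 with the 100 bp window and ran from 1.28 to 1.98. Lists above the all-gene share, 19, fell to 7 with the 500 highest peaks and were 15 and 20 in the replicates. TATAAA, 9.18%, was 7.52% with the 500 bp window, 7.14% for the 500 highest peaks, 10.2% at IDR at most 0.05 and 29.4% within 150 bp of the summit, and ran from 7.44 to 8.89. The median G+C content, 43.0%, was 49.7% for the 500 highest peaks and 38.4% within 150 bp, and ran from 43.0 to 46.4. None of these settings turned a ratio to the other side of 1 for X, divergence or spacing; the cause of the changes was not tested. Read depth is unknown, so no limit of detection can be given.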

Other observations

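Among the other recurring 10-letter words, TCTGCGTCTC was under 14 of the peaks (4.43%) and in 1.27% of promoter windows, with a median signal of 160. Its peaks included the pair F44E5.4 and F44E5.5 at 539, drr-2 with set-16 at 336, his-67 with his-68 at 265 and hsb-1, for a protein that binds heat shock factor, at 124. Within the middle range of G+C content it was under 3.07% of the peaks and in 3.12% of promoter windows, so its excess was not seen among promoters of like composition. TCCTCTCGGA was under 10 peaks (3.16%) and in 0.263% of windows, with a median signal of 109; its peaks included the nuclear pore genes npp-8 at 116 and npp-18 at 66.6 and the mitochondrial ribosomal protein gene mrpl-28 at 80.2. GCAAACACCG was under 11 peaks (3.48%) and in 0.441% of windows, among them pro-1, for a ribosomal RNA processing protein, at 233 and snpc-3.4 at 102. These words and genes were picked after the values were seen.

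Along the autosomes, each split into equal left, middle and right parts, the share of occupied genes was 1.71%, 2.03% and 2.39%, and along X it was 0.918%, 0.410% and 0.452%. A further 300 calls of the whole-series ranked list met the same position rule with an IDR between 0.01 and 0.05, with a median signal of 67.2.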
